A study of Mus musculus with 16 samples.

Results

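Klf2, Klf4, Klf5, Tbx3, Tfcp2l1, Esrrb, Nr5a2, Nr0b1, Prdm14 and Zfp42 encode transcription factors that mark the naive state of mouse embryonic stem cells. These 10 genes were taken by name from a table of 21977 gene names. All 10 passed the minimum mean of 10 normalised reads in both kinds of library. Each was measured as ribosome-protected fragments (RPF, the stretches of mRNA that a translating ribosome shields from nuclease) and as total RNA in the same 8 cultures of the RF8 embryonic stem cell line, kept in leukaemia inhibitory factor (LIF) on gelatin. The series compared cells that carry both, 1 or no working copy of Nat1. Nat1 is an older name of Eif4g2 (DAP5, p97), a scaffold related to the initiation factor eIF4G that cannot bind the cap-binding protein eIF4E.

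The wild-type group (WT) held the cultures WTex1 and WTex2 (replicates 1 and 2), which are cultures of 1 untargeted line. The Nat1+/- group held A7, B4 and C1 (replicates 1, 2 and 3) and the Nat1-/- group held B12, B2 and C3 (replicates 1, 2 and 3), whose names are those of separate targeted clones. The sources used here do not say how the alleles were disrupted. The p-values therefore measure the spread between clones in the targeted groups and between cultures of 1 line in WT, where it may be technical. The 3 genotype comparisons share groups, so their results for a gene are not independent of one another. Values are listed in the order of the replicates.

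Naive pluripotency is the state of the early epiblast, which mouse embryonic stem cells keep in culture as long as LIF signals through STAT3 and the differentiation cue from FGF and ERK is held in check. The factors described here sit between those signals and the core trio of Pou5f1, Sox2 and Nanog, and several can replace one another: forced expression of Klf4, Klf5, Tbx3, Tfcp2l1, Esrrb or Nr5a2 is known to stand in for LIF or to return primed cells to the naive state. Klf4 and Tfcp2l1 are known targets of STAT3, Esrrb is repressed by the WNT-controlled factor TCF7L1, Tbx3 responds to PI3K signalling, and Prdm14 represses FGF receptor and de novo DNA methylation genes.

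The targeted gene matched the labels: Eif4g2 RPF values were 17666 and 13862 for WT, 10261, 7608 and 7275 for Nat1+/- and 1089, 1114 and 922 for Nat1-/-, falling without overlap from group to group, and its total RNA was 47932 and 26984 for WT, 15335, 12092 and 10674 for Nat1+/- and 12249, 8795 and 5085 for Nat1-/-. RPF libraries held 17.5 to 23.8 M reads, and total RNA libraries 33.6 to 42.6 M reads in WTex1, WTex2 and B12 but 13.2 to 16.4 M reads in the other 5 cultures. Within a genotype, some cultures stood apart. On the second principal component, which carried 18.8% of the RPF variance and 17.5% of that of total RNA, C3 fell with A7, B4 and C1 on one side, while B12 and B2 fell with WT on the other. WTex1 had the lower value of the 2 WT cultures for 10 of 10 factors in both assays, B4 the lowest Nat1+/- value for 8 of 10 in both assays, and C3 the lowest Nat1-/- total RNA value for 9 of 10. All 4 core pluripotency factors searched for (Pou5f1, Sox2, Nanog and Sall4) were detected in every library, with summed RPF values of 34283 to 67256 normalised reads. Deposited values are scaled to the bulk of genes, so a shift of nearly every gene at once cannot be seen in them.

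In Nat1-/- against Nat1+/- cultures, RPF of 5 factors rose (Klf4, Klf5, Tbx3, Prdm14 and Zfp42) and that of 1 fell (Klf2), where 17.6% of the 13110 genes tested were called higher and 18.6% lower. Total RNA of 7 factors rose (the same 5 with Tfcp2l1 and Esrrb) and that of Klf2 fell, against 19.8% and 20.2% of 13813 genes. The median log2 fold change of the 10 factors was 0.67 in RPF and 0.72 in total RNA, and that of all genes tested 0.02 and 0.01. Called means a Benjamini-Hochberg adjusted p under 0.05 in limma, a linear model fitted across all genes on log2(normalised reads + 1). The response was broad, and the list as a whole was given no test. Separation of groups without overlap, given below for single factors, was not counted over all genes, so it cannot be called particular to them.

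In Nat1-/- against WT, RPF of 7 factors rose (those of Klf4, Klf5, Tbx3, Tfcp2l1, Esrrb, Nr5a2 and Prdm14) and that of Klf2 fell, beside 16.5% and 18.3% of all genes. Total RNA of 8 factors rose, the same 7 and Zfp42, and that of Klf2 fell, beside 16.2% and 18.9%. The member medians were 1.35 and 1.28, with 0.03 and 0.02 over all genes. In Nat1+/- against WT, RPF of Klf4, Tbx3, Tfcp2l1, Esrrb and Nr5a2 rose (5 of 10) and that of 0 fell, where 5.35% and 5.13% of genes were called. At an unadjusted p under 0.05, 7 were higher and 0 lower in that RPF comparison, beside 15.3% and 15.6% of all genes. There edgeR called 4 higher and 0 lower, with 647 and 727 of all genes, and DESeq2 5 higher and 0 lower, with 1284 and 1235 of all genes, against 701 and 673 in limma. Total RNA of Tbx3, Tfcp2l1 and Nr5a2 rose (3 of 10) and that of 0 fell, beside 4.6% and 5.41%. At an unadjusted p under 0.05 that total RNA comparison had 4 higher and 1 lower, beside 14.2% and 16% of all genes. There edgeR and DESeq2 each called 3 higher and 0 lower, with 656 and 834 of all genes in edgeR and 1222 and 1337 in DESeq2. The medians of the 10 factors were 0.71 in RPF and 0.38 in total RNA, against -0.01 and -0.02 over all genes.

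These shares depended in part on the scaling. With libraries scaled to equal sums, the median gene shifted by -0.11 in RPF and -0.12 in total RNA for Nat1-/- against WT, and calls over all genes divided into 1558 higher and 2744 lower instead of 2167 and 2400 in RPF, and 1632 and 3136 instead of 2231 and 2608 in total RNA. Total RNA of Nat1+/- against WT then gave 451 higher and 1153 lower, and 495 and 906 with TMM factors, in place of 636 and 747. Each called change of a factor kept its direction under both scalings. The comparisons with WT rested on WTex1 and WTex2 alone. Leaving out either leaves WT with 1 culture, and few or no genes of all then kept a Nat1+/- call. A call lost in that way cannot be laid to the factor or to the culture left out. Without WTex1 the Nat1+/- RPF changes were 1.15 for Klf4, 1.65 for Tbx3, 1.67 for Tfcp2l1, 0.45 for Esrrb and 0.83 for Nr5a2. With all cultures they were 1.33, 2.30, 2.02, 0.72 and 1.23. Without A7 the Nat1+/- against WT counts of factors were 2 in RPF and 0 in total RNA, with 84 and 186 of all genes. Without B2 they were 3 and 3, with 457 and 657, where all cultures together gave 1374 and 1383.

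**Figure D1:**
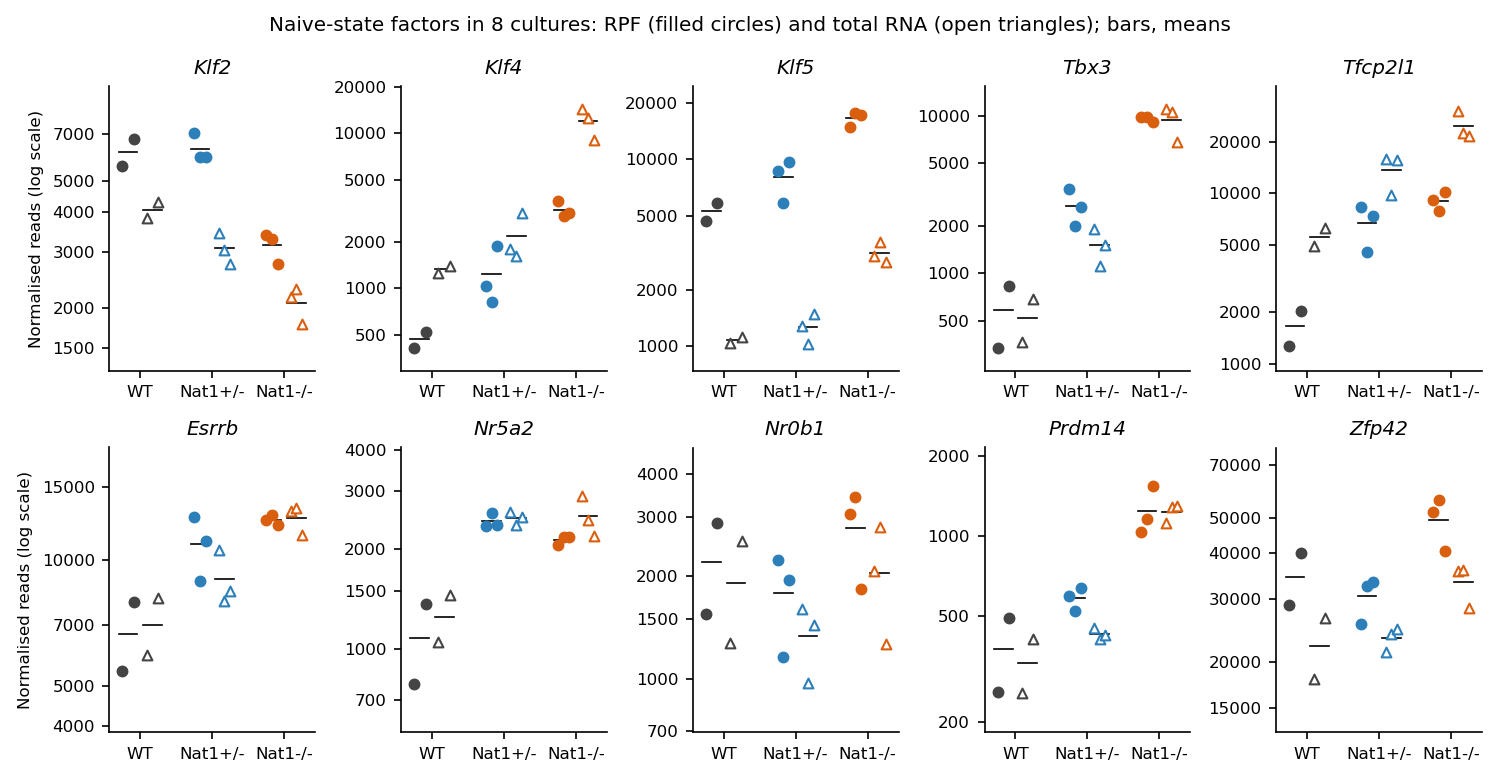
Normalised reads (log scale) of each factor by genotype, with RPF as filled circles, total RNA as open triangles, 1 point per culture and a bar at each mean. Klf4, Klf5, Tbx3, Prdm14 and Zfp42 have Nat1-/- points above every Nat1+/- and WT point in both assays, while Klf2 lies below. For Zfp42 the margin over WT is narrow. How many of all genes separate in this way was not counted. Levels cannot be compared between genes, since they are not divided by length.

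**Figure D2:**
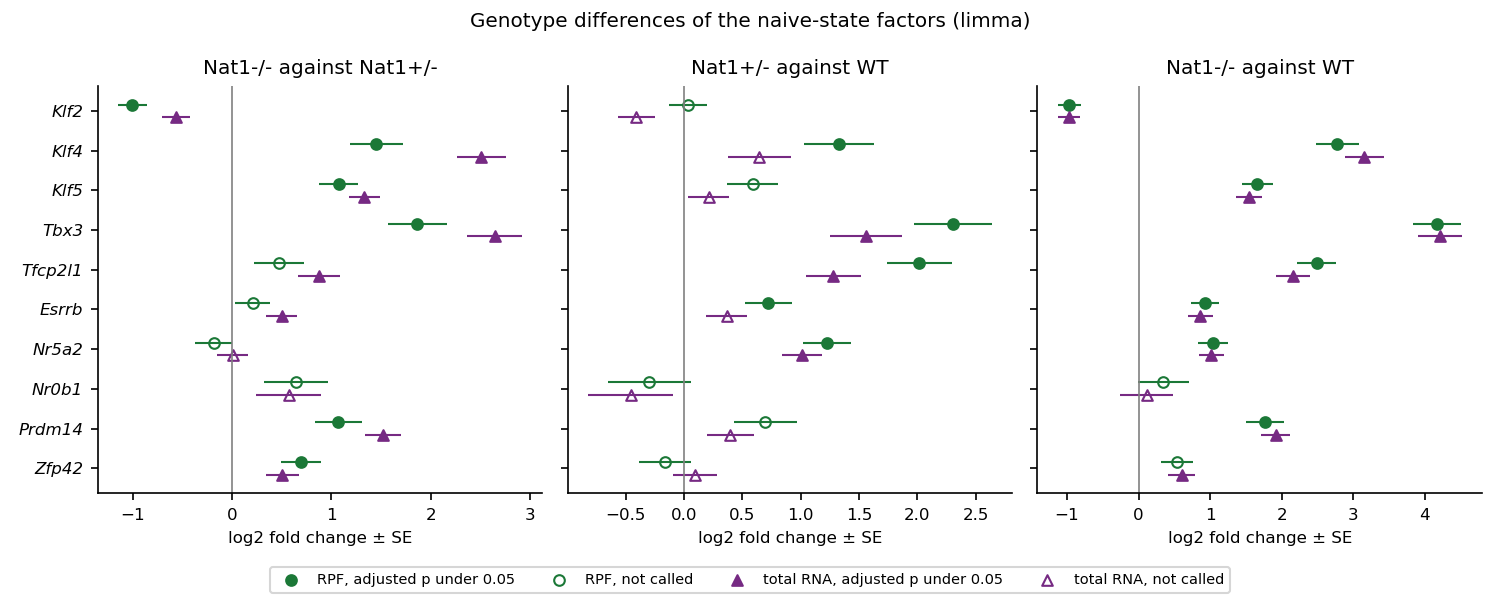
Log2 fold change ± SE of the 10 factors in each genotype comparison for RPF (circles) and total RNA (triangles), filled where the limma adjusted p was under 0.05. Tbx3 reaches 4.17 in RPF for Nat1-/- against WT, and Klf2 is on the negative side in both comparisons of Nat1-/-.

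The Krüppel-like factors are zinc finger proteins that bind GC-rich and CACCC elements, and Klf2, Klf4 and Klf5 act in part interchangeably in embryonic stem cells. They did not move together. Klf4, the Krüppel-like factor most directly switched on by LIF and STAT3, had total RNA values of 1263 and 1384 for WT, 1788, 1609 and 3079.8 for Nat1+/- and 14431, 12631 and 9024 for Nat1-/-. The 3 Nat1-/- cultures lay above every Nat1+/- culture, and these above WT, with no overlap between groups. Klf4 total RNA was 5.7-fold higher in Nat1-/- than in Nat1+/- (log2 fold change 2.51 ± 0.24 SE, limma adjusted p = 9.9e-05; SE is the standard error). Its RPF values were 410.2 and 526 for WT, 1042, 811 and 1876 for Nat1+/- and 3662, 2909 and 3056 for Nat1-/-. The order of the groups was the same and the step from Nat1+/- to Nat1-/- was shorter, at 1.45 ± 0.27 SE, limma adjusted p = 0.00332. Against WT, Klf4 RPF rose by 2.78 ± 0.30 in Nat1-/- (limma adjusted p = 1.9e-04) and by 1.33 ± 0.30 in Nat1+/- (limma adjusted p = 0.0287). The Nat1+/- call was lost without WTex1 (adjusted p = 0.285), WTex2, A7 or B2, without the variance trend and with the replicate number as a block (adjusted p = 0.0739). Klf4 total RNA in Nat1+/- against WT was 0.65 ± 0.27 SE, limma adjusted p = 0.143.

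Klf5, which in the embryo is needed for the inner cell mass and trophectoderm, had RPF values of 4694 and 5875 for WT, 8680.0, 5859 and 9682 for Nat1+/- and 14913, 17724 and 17372 for Nat1-/-. The Nat1-/- cultures stood above all others, whereas the lowest Nat1+/- culture, B4, lay just under the higher WT culture. Klf5 RPF was 2.1-fold higher in Nat1-/- than in Nat1+/- (1.07 ± 0.20 SE, limma adjusted p = 0.00309) and 3.16-fold higher than in WT (1.66 ± 0.22 SE, limma adjusted p = 5.2e-04). Klf5 total RNA was 1036 and 1116 for WT, 1278, 1025 and 1471 for Nat1+/- and 3019, 3617 and 2828 for Nat1-/-. It rose by 1.33 ± 0.16 SE, limma adjusted p = 2.8e-04, against Nat1+/-, while the Nat1+/- difference from WT was 0.21 ± 0.18 (limma adjusted p = 0.448) with overlapping cultures. RPF of Klf5 in Nat1+/- against WT was 0.59 ± 0.22 SE, limma adjusted p = 0.105, and was called without B4 (adjusted p = 0.0356).

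Klf2, whose protein is known to be marked for breakdown by ERK, was the exception. Its RPF values were 5559 and 6744 for WT, 7061, 5919 and 5933 for Nat1+/- and 3386, 3300.3 and 2742 for Nat1-/-, and its total RNA was 3829 and 4308 for WT, 3442, 3035 and 2752 for Nat1+/- and 2169, 2291 and 1786 for Nat1-/-. WT and Nat1+/- footprints overlapped, and the Nat1-/- cultures lay below both. Klf2 RPF was 2.01-fold lower in Nat1-/- than in Nat1+/- (-1.01 ± 0.14 SE, limma adjusted p = 9.1e-04) and 1.96-fold lower than in WT (-0.97 ± 0.16 SE, limma adjusted p = 0.00170). In total RNA the fall from Nat1+/- to Nat1-/- was smaller (-0.56 ± 0.14 SE, limma adjusted p = 0.0103). Klf2 total RNA lay lower in Nat1+/- than in WT without overlap, a difference that was not called (-0.41 ± 0.16 SE, limma adjusted p = 0.115).

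Among the other Krüppel-like genes of the mouse, a list of 14, RPF of 1 of 13 tested rose and that of 3 fell in Nat1-/- against Nat1+/- (median log2 fold change -0.17), and total RNA of 5 of 12 rose and of 3 fell (median 0.19), beside the 17.6% and 18.6%, and 19.8% and 20.2%, of all genes. Against WT the calls were 3 higher and 2 lower in RPF and 3 and 3 in total RNA (medians 0.05 and 0.17). Klf8 rose in RPF (1.03 ± 0.23 SE, limma adjusted p = 0.00723) and in total RNA (1.27 ± 0.20 SE, limma adjusted p = 0.00108). Klf13 and Klf3 rose in total RNA, by 1.66 ± 0.30 SE, limma adjusted p = 0.00231 and by 1.13 ± 0.24 SE, limma adjusted p = 0.00457, and their RPF differences were 0.58 and -0.17, not called. The combination seen for Klf2, a fall in both assays, was also called for Klf6 and Klf7, named here after their values were seen. Klf6 fell in RPF (-0.75 ± 0.20 SE, limma adjusted p = 0.0165) and in total RNA (-0.66 ± 0.16 SE, limma adjusted p = 0.0101). For Klf7 the values were -1.03 ± 0.27 SE, limma adjusted p = 0.0154, and -1.10 ± 0.24 SE, limma adjusted p = 0.00592.

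Promoter sequence was taken from RefSeq for the mouse assembly GRCm38.p6, as the 250 bases before an annotated start. It was found for 7 of the 10 genes (9 windows, since Esrrb and Nr5a2 have 2 starts each). Windows for Klf5, Tbx3 and Prdm14 were not used here. The 4 printed below are Klf4 and Tfcp2l1, which rose in total RNA, Klf2, which fell, and Zfp42, the reporter gene of the naive state. Capitals mark matches to any motif searched, on either strand. Klf2 is chr8:72318812-72319061 (plus strand), Klf4 chr4:55532476-55532725 (minus strand), Tfcp2l1 chr1:118627695-118627944 (plus strand) and Zfp42 chr8:43307010-43307259 (minus strand), each written 5′ to 3′ along the gene.
Klf2: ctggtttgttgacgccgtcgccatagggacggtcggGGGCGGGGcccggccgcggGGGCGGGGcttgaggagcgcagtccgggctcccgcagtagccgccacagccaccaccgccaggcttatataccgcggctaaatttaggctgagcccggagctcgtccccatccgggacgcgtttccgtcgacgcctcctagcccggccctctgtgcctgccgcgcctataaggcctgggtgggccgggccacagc
Klf4: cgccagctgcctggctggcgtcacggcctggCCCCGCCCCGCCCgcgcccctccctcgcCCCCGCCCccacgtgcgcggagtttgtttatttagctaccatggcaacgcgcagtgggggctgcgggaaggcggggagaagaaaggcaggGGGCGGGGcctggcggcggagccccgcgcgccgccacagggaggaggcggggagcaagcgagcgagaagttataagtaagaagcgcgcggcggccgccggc
Tfcp2l1: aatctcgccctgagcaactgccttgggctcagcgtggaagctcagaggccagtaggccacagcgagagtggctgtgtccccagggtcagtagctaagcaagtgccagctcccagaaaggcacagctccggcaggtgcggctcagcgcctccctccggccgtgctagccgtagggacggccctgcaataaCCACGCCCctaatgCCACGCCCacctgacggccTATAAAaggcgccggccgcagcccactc
Zfp42: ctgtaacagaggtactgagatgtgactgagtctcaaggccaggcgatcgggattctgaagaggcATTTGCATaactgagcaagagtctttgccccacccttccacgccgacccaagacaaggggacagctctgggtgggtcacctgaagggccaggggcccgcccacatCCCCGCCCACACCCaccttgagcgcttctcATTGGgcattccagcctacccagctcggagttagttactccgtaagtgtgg

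The motifs searched were GGGTGTGG and GGGCGTGG (bound by Krüppel-like factors), GGGCGGGG (SP and Krüppel-like factors), AAGGTCA (ESRRB and NR5A2), TTCNNNGAA (STAT), ATGCAAAT (OCT), CTTTGA (TCF), AGGTGTGA (T-box), TATAAA and CCAAT, each on both strands. They occurred in 3.20%, 4.79%, 16.1%, 4.08%, 7.02%, 1.60%, 13.8%, 1.12%, 12.4% and 33.8% of the 32851 promoter windows of that length in the table, in the same order. Klf4, which rose, and Klf2, which fell, had the same kind of match: GGGCGGGG occurred 4 times in the Klf4 window, with matches at -219 and -214 that overlap, and 2 times in that of Klf2. Both windows were rich in G and C, at 74% and 71.2% against a median of 52.4% over all windows, and held 32 and 29 CpG dinucleotides against a median of 6. Tfcp2l1 had GGGCGTGG on the reverse strand at -61 and -47 and TATAAA at -28. Zfp42 had ATGCAAAT on the reverse strand at -186, the reverse of GGGTGTGG at -75, overlapping the reverse of GGGCGGGG at -81, and CCAAT reversed at -51. In the windows not printed, TTCNNNGAA was found before 1 Esrrb start and CCAAT before the other, CTTTGA and TATAAA before the start of Nr0b1, and before the Nr5a2 starts TATAAA in 1 window and GGGCGTGG and CCAAT in the other. AAGGTCA and AGGTGTGA matched in 0 of the 9 windows. These matches describe the letters and say nothing about binding in these cells.

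Tbx3, a T-box factor that can sustain self-renewal without LIF, had the largest log2 fold change of the 10 in RPF and in total RNA in each genotype comparison. Its RPF values were 336 and 834 for WT, 3415, 1989.7 and 2646 for Nat1+/- and 9744, 9836 and 9097 for Nat1-/-, and its total RNA was 364 and 682 for WT, 1902, 1114 and 1511 for Nat1+/- and 11011, 10536 and 6791 for Nat1-/-. The 3 genotypes were separated without overlap in both assays, in the order WT, Nat1+/-, Nat1-/-. Tbx3 RPF was 4.94-fold higher in Nat1+/- than in WT (2.30 ± 0.34 SE, limma adjusted p = 0.0103) and a further 3.65-fold higher in Nat1-/- (1.87 ± 0.30 SE, limma adjusted p = 0.00164), together 18-fold (4.17 ± 0.34 SE, limma adjusted p = 5.0e-05). In total RNA the step from WT to Nat1+/- was 1.56 ± 0.31 SE, limma adjusted p = 0.0181, and that from Nat1+/- to Nat1-/- 2.65 ± 0.28 SE, limma adjusted p = 1.4e-04. The RPF change against WT was 3.52 without WTex1 and 4.82 without WTex2 in Nat1-/-, and 1.65 (adjusted p = 0.13) and 2.96 in Nat1+/-. The total RNA call in Nat1+/- was lost without WTex1 (adjusted p = 0.217), WTex2 or A7, without the variance trend (adjusted p = 0.0544) and with the replicate number as a block (adjusted p = 0.0562). Tbx3 lies over the noncoding gene Tbx3os1, and the sources used here do not say how strand was handled in counting, so reads of the pair cannot be told apart.

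Tfcp2l1, a CP2 family factor that relays LIF and STAT3 signalling, had RPF values of 1267 and 2042 for WT, 8274, 4495 and 7404 for Nat1+/- and 9159, 7922 and 10136 for Nat1-/-. All targeted cultures lay above WT, but Nat1+/- and Nat1-/- footprints overlapped. Its RPF rose 4.04-fold from WT to Nat1+/- (2.02 ± 0.28 SE, limma adjusted p = 0.00820), and the further difference to Nat1-/- was not called (0.47 ± 0.25 SE, limma adjusted p = 0.163). Total RNA of Tfcp2l1 was 4892 and 6258 for WT, 15912, 9728 and 15696 for Nat1+/- and 30561, 22592 and 21743 for Nat1-/-, separating the 3 groups. It rose 2.43-fold from WT to Nat1+/- (1.28 ± 0.24 SE, limma adjusted p = 0.0164) and 1.83-fold from Nat1+/- to Nat1-/- (0.88 ± 0.21 SE, limma adjusted p = 0.00956). The Nat1+/- calls were lost without WTex1 (adjusted p = 0.154 in RPF and 0.202 in total RNA), that in total RNA also without WTex2 or A7 and with the replicate number as a block (adjusted p = 0.0548). The annotation places a pseudogene, LOC115487679, over Tfcp2l1, and the 2 cannot be told apart in the counts.

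Among the nuclear receptors, Esrrb and Nr5a2 rose against WT and Nr0b1 was called in no comparison. Esrrb, an orphan oestrogen-related receptor that TCF7L1 represses, had RPF values of 5417 and 7937 for WT, 12745, 8942 and 11138 for Nat1+/- and 12501, 12842 and 12137 for Nat1-/- and total RNA of 5924 and 8114 for WT, 10589, 8015 and 8432 for Nat1+/- and 13171, 13328 and 11498 for Nat1-/-. Every targeted culture was above WT in RPF, whereas B4 was just under WTex2 in total RNA. Esrrb RPF was 1.9-fold higher in Nat1-/- than in WT (0.93 ± 0.20 SE, limma adjusted p = 0.00628) and 1.65-fold higher in Nat1+/- (0.72 ± 0.20 SE, limma adjusted p = 0.0489), with 0.21 ± 0.18 between the targeted genotypes (limma adjusted p = 0.393). In total RNA the rise in Nat1-/- was 0.87 ± 0.18 SE, limma adjusted p = 0.00410, against WT and 0.50 ± 0.16 SE, limma adjusted p = 0.0301, against Nat1+/-. The last of these calls was lost without B4, C1, B12 or B2 and without the variance trend (adjusted p up to 0.107), both calls against WT in Nat1-/- without WTex1 (adjusted p = 0.0845 and 0.0588), and the Nat1+/- RPF call in 9 of 19 alternatives. Esrrb overlaps the noncoding gene Gm40483, from which its reads cannot be told apart.

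Nr5a2 (LRH-1), a receptor that binds the regulatory region of Pou5f1, was higher in both targeted genotypes than in WT. Its RPF values were 783 and 1368 for WT, 2355, 2567 and 2364 for Nat1+/- and 2060.0, 2172 and 2172 for Nat1-/-, and its total RNA was 1050.3 and 1450.0 for WT, 2596, 2372 and 2496 for Nat1+/- and 2899, 2451 and 2192 for Nat1-/-. Both targeted groups stood above WT without overlap, and in RPF the Nat1-/- cultures lay below the Nat1+/- cultures. The rise over WT was 2.34-fold in Nat1+/- RPF (1.23 ± 0.21 SE, limma adjusted p = 0.0157) and 2.06-fold in Nat1-/- RPF (1.04 ± 0.21 SE, limma adjusted p = 0.00416), and in total RNA 2.01-fold and 2.02-fold (limma adjusted p = 0.0127 and 0.00159). Between Nat1-/- and Nat1+/- the log2 differences were -0.19 ± 0.19 in RPF and 0.01 ± 0.15 in total RNA (limma adjusted p = 0.458 and 0.980), so neither was called. The Nat1+/- calls did not hold without WTex1 (adjusted p = 0.169 in RPF and 0.189 in total RNA) or without A7, nor, in total RNA, without WTex2.

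Nr0b1 (Dax1), an X-linked relative without the usual DNA-binding domain that acts as a corepressor, was not called in any comparison of either assay. Its RPF values were 1547 and 2864 for WT, 2229, 1156 and 1957 for Nat1+/- and 3062, 3423 and 1833 for Nat1-/-, and total RNA was 1269 and 2548 for WT, 1603, 972 and 1440.0 for Nat1+/- and 2077, 2803 and 1261 for Nat1-/-. The spread within each genotype was wide, with WTex2, A7, B12 and B2 high and WTex1, B4 and C3 low in both assays. The Nat1-/- against Nat1+/- difference was 0.64 ± 0.32 SE, limma adjusted p = 0.145, in RPF and 0.57 ± 0.33 SE, limma adjusted p = 0.190, in total RNA. Without C3 it was called in both assays (adjusted p = 0.0388 and 0.0384).

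Prdm14, a PR-domain protein that keeps de novo methyltransferases and FGF receptors low, and Zfp42 (Rex1), a YY1-related zinc finger protein used as the standard reporter of the naive state, also differed. RPF of Prdm14 was 261 and 493 for WT, 593, 522 and 638 for Nat1+/- and 1031, 1158 and 1533 for Nat1-/-, and its total RNA was 257 and 411 for WT, 451, 410.3 and 424 for Nat1+/- and 1123, 1283 and 1297 for Nat1-/-. The Nat1-/- cultures were above all others in both assays, and the Nat1+/- cultures were above WT in RPF but met WTex2 in total RNA. Prdm14 RPF rose 2.1-fold from Nat1+/- to Nat1-/- (1.07 ± 0.24 SE, limma adjusted p = 0.00756) and its total RNA 2.87-fold (1.52 ± 0.18 SE, limma adjusted p = 2.8e-04). Against WT the rise was 1.77 ± 0.27 SE, limma adjusted p = 0.00104, in RPF and 1.92 ± 0.20 SE, limma adjusted p = 1.3e-04, in total RNA. Between Nat1+/- and WT it was 0.70 ± 0.27 and 0.40 ± 0.20 (limma adjusted p = 0.112 and 0.215). Prdm14 had the thinnest coverage of the 10, with 276 recovered reads in the total RNA of A7.

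Zfp42 RPF was 28729.9 and 40143 for WT, 25582, 32533 and 33409 for Nat1+/- and 52077, 55981 and 40619 for Nat1-/-, and its total RNA was 17940.2 and 26464 for WT, 21393, 23985 and 24658 for Nat1+/- and 35842, 35903 and 28244 for Nat1-/-. Nat1-/- cultures lay above the others, with C3 only just above WTex2, while WT and Nat1+/- overlapped. The rise from Nat1+/- to Nat1-/- was 1.62-fold in RPF (0.70 ± 0.20 SE, limma adjusted p = 0.0223) and 1.42-fold in total RNA (0.51 ± 0.17 SE, limma adjusted p = 0.0375). The RPF call was lost without A7 or B2 (adjusted p = 0.0896 and 0.095), and the total RNA call without any 1 of A7, B4, C1, B12 or B2, without the variance trend or without a minimum mean (adjusted p from 0.0646 to 0.129). Against WT, Zfp42 total RNA rose in Nat1-/- by 0.60 ± 0.19 SE, limma adjusted p = 0.0314, which was lost without WTex1, B12 or B2, without the variance trend or a minimum mean, in a fit of 2 genotypes only and with equal library sums (adjusted p = 0.057 for the last). The RPF difference was 0.53 ± 0.22 SE, limma adjusted p = 0.0907, and was called without C3 (adjusted p = 0.0348).

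The ratio of RPF to total RNA in a culture, used as a measure of footprints per RNA (translational efficiency, TE), put the factors in very different places. For Klf5 the ratio was 4.53 and 5.26 for WT, 6.79, 5.72 and 6.58 for Nat1+/- and 4.94, 4.9 and 6.14 for Nat1-/-, above at least 99.7% of the genes with a mean of 50 normalised reads in both assays. Tfcp2l1 and Klf4 lay low, above 5.97% to 23.7% and 5.44% to 32.3% of genes. Klf2 lay above 83.9% to 97.4%, and the other 6 above 44.2% to 94.5%. Total RNA reads cover untranslated sequence, which ribosomes mostly do not, so these ranks also carry the share of each mRNA that is coding, which was not measured.

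Between genotypes, this ratio was highest in Nat1+/- for most of the factors. In Nat1-/- against Nat1+/- it was lower for 8 of the 10 and higher for 2, beside 48.6% of all 12933 genes lower. In Nat1+/- against WT it was lower for 1 and higher for 9, beside 47.1% lower. These comparisons share the Nat1+/- cultures. The ratio of Klf4 was 0.325 and 0.380 for WT, 0.583, 0.504 and 0.609 for Nat1+/- and 0.254, 0.230 and 0.339 for Nat1-/-. Those of Tbx3 were 0.924 and 1.22 for WT, 1.8, 1.79 and 1.75 for Nat1+/- and 0.885, 0.934 and 1.34 for Nat1-/-, and those of Klf2 were 1.45 and 1.57 for WT, 2.05, 1.95 and 2.16 for Nat1+/- and 1.56, 1.44 and 1.54 for Nat1-/-. For all 3 genes the 3 Nat1+/- cultures lay above each of the other 5. WT and Nat1-/- overlapped for all 3. Prdm14 and Esrrb had the same arrangement of the Nat1+/- cultures above the other 5. How many of all genes had this arrangement was not counted, so it cannot be called particular to the factors.

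With TE tested through an interaction term, 0 of the 10 factors were called in any comparison by limma, with 4 genes (0.0309%) higher and 71 (0.549%) lower among all genes in Nat1-/- against Nat1+/-. This fit does not use the pairing of RPF and total RNA within a culture. For Klf4 in that comparison its SE was 0.40, against 0.14 in a fit with a term for each culture, and it was larger for all 10 factors. In the comparison with WT the shares of all genes called higher and lower were 0% and 0.00773% for Nat1-/- and 0% and 0% for Nat1+/-. At an unadjusted p under 0.05, Klf2 and Klf4 (2 of 10) were lower in Nat1-/- against Nat1+/-, beside 6.56% of all genes, and 0 factors passed in the comparisons with WT. The median TE difference of the 10 was -0.35 in Nat1-/- against Nat1+/-, 0.02 in Nat1-/- against WT and 0.37 in Nat1+/- against WT, with 0.01, 0.03 and 0.02 over all genes.

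RPF and total RNA came from the same culture, and a fit with a term for each culture, which uses that pairing, called 4 factors lower and 0 higher in Nat1-/- against Nat1+/-, beside 9.26% of genes lower and 6.49% higher. At an unadjusted p under 0.05 it had 7 lower and 0 higher, beside 16.9% and 15.5% of all genes, and no other tool was run for the ratio. The 4 were Klf4 (-1.06 ± 0.14 SE, limma adjusted p = 0.00135), Tbx3 (-0.78 ± 0.15 SE, limma adjusted p = 0.00806), Klf2 (-0.44 ± 0.09 SE, limma adjusted p = 0.00760) and Prdm14 (-0.45 ± 0.13 SE, limma adjusted p = 0.0428). For Klf4, Tbx3 and Prdm14 both RPF and total RNA rose in Nat1-/-, with the larger rise in total RNA, and for Klf2 both fell, with the larger fall in RPF. The Prdm14 call was lost in 8 of 16 alternatives, among them without A7, B4, C1, B12 or B2, and those of Klf2, Klf4 and Tbx3 were lost in 0 of 16. Without C3, 7 factors were called lower, Klf5, Tfcp2l1 and Esrrb having joined the 4, while calls over all genes went from 1198 lower and 839 higher to 1712 and 1232. With equal library sums or TMM factors the calls over all genes shifted to 566 higher and 1520 lower, or 519 and 1670, from 839 and 1198, and the calls of the first 4 kept their direction. Factors called lower then numbered 5 with equal sums, Esrrb having joined, and 6 with TMM factors, Esrrb and Tfcp2l1 having joined.

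C3 had the highest ratio of the Nat1-/- cultures for Klf4, Klf5, Tbx3, Tfcp2l1, Esrrb, Nr5a2 and Prdm14, and for Klf5, Tfcp2l1 and Nr5a2 it fell within the Nat1+/- range. It shared a shallow total RNA library and its side of the second principal component with the Nat1+/- cultures. Among the cultures with shallow total RNA (A7, B4, C1, B2 and C3), Klf2, Klf4 and Tbx3 (3 of 10) were called lower by the fit with the culture term, as were 1056 of all 12764 genes tested, with 868 higher. The part of the second component in these ratios was not tested.

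Against WT the culture term left 0 of 10 factors called. Of all genes, 0.232% were higher and 0.99% lower in Nat1-/-, and 0.696% higher and 0.433% lower in Nat1+/-. At an unadjusted p under 0.05, 0 factors were higher and 1 lower in Nat1-/-, beside 5.48% and 6.61% of all genes, and 6 higher and 1 lower in Nat1+/-, beside 12.6% and 9.19%. In Nat1+/- 4 factors came close to the threshold, at adjusted p of 0.0506 for Klf2, 0.0558 for Tfcp2l1, 0.0560 for Tbx3 and 0.0562 for Klf4, with log2 differences of 0.44, 0.73, 0.74 and 0.68.

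**Figure D3:**
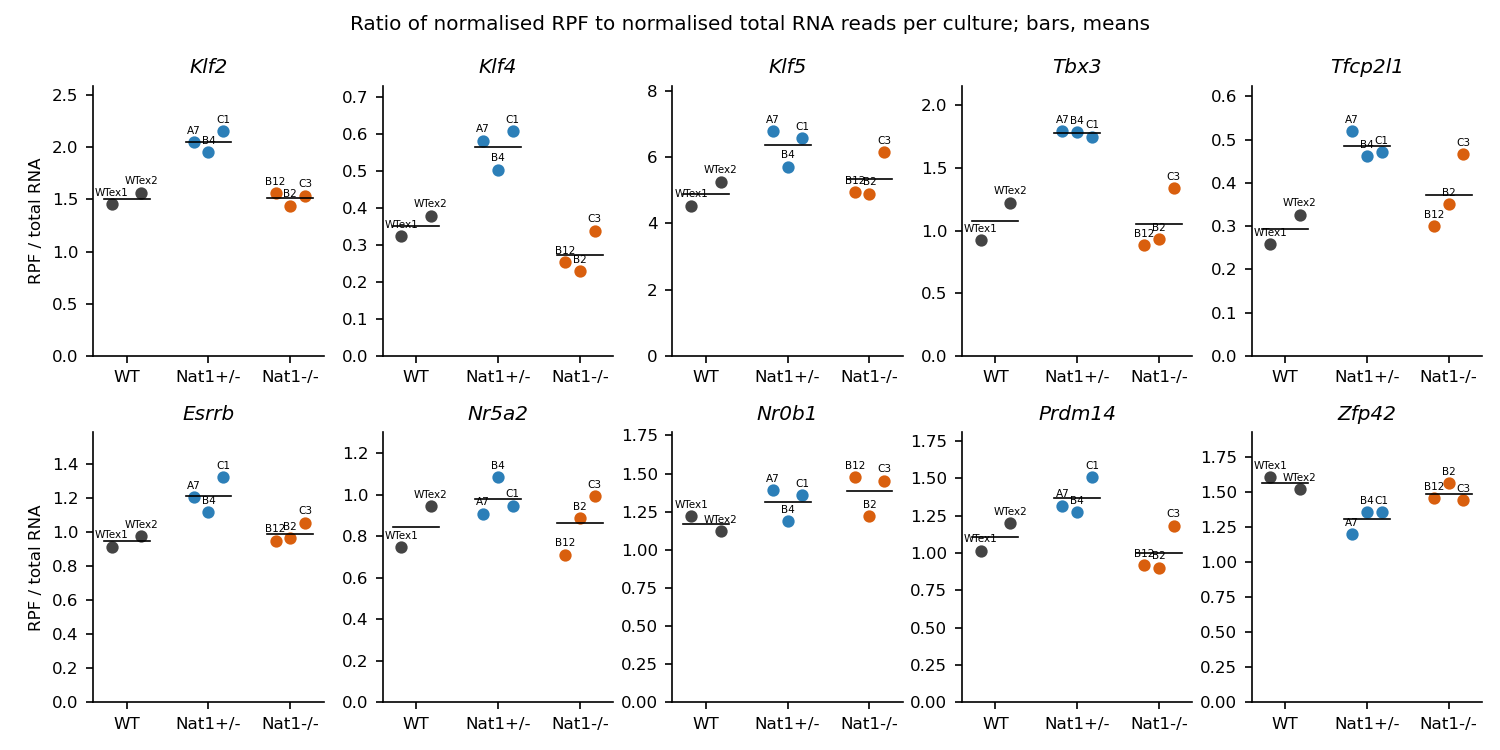
Ratio of normalised RPF to normalised total RNA reads for each factor and culture, on linear axes that start at 0, with bars at the means. The 3 Nat1+/- cultures lie above the other 5 for Klf2, Klf4, Tbx3, Esrrb and Prdm14, and C3 lies within their range for Klf5, Tfcp2l1 and Nr5a2.

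**Figure D4:**
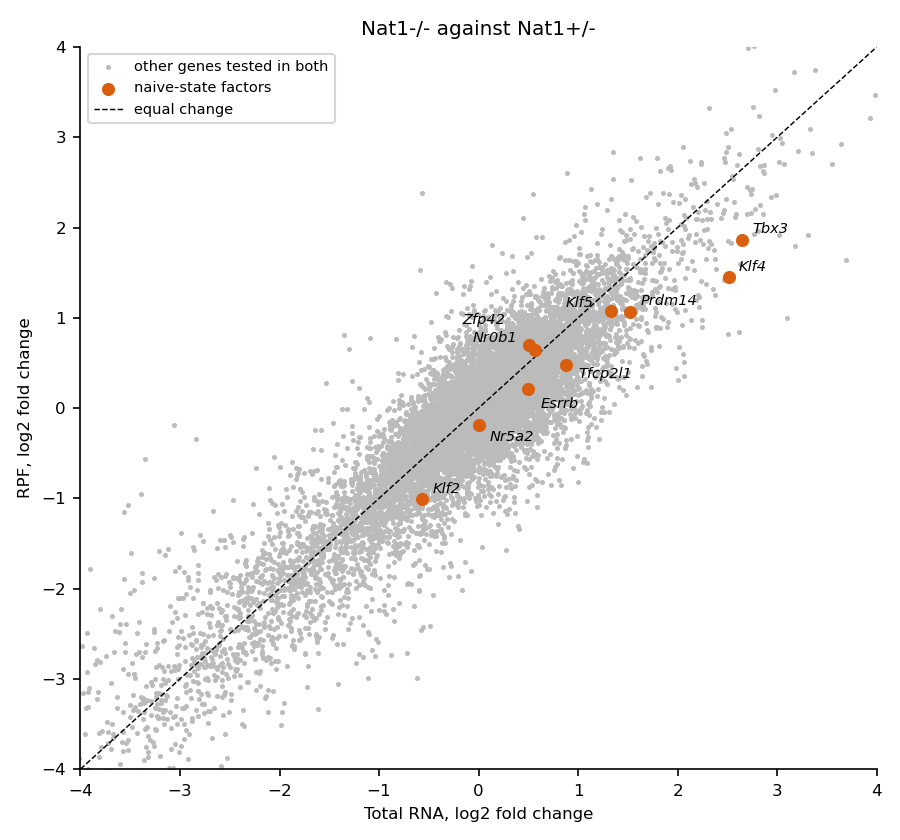
Log2 fold change of RPF against that of total RNA, Nat1-/- against Nat1+/-, for the 12933 genes tested in both, with the 10 factors in orange and a dashed line of equal change; 124 genes lie outside the axes. Klf4, Tbx3 and Prdm14 lie to the right of the line and Klf2 below it, in the quadrant where both values are negative.

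The genes around the factors were read from lists drawn up by function. Their counts stand beside the shares of all genes called, for Nat1-/- against Nat1+/- 17.6% higher and 18.6% lower in RPF and 19.8% and 20.2% in total RNA, and against WT 16.5% and 18.3% in RPF and 16.2% and 18.9% in total RNA. Most lists are short, and a count such as 1 of 9 lies near those shares. Of the core factors, 2 of 4 rose in RPF and 4 of 4 in total RNA in Nat1-/- against Nat1+/- (medians 0.60 and 0.85), and against WT 2 of 4 in each (medians 0.72 and 0.84). Nanog rose in both (0.90 ± 0.18 SE, limma adjusted p = 0.00444, and 0.94 ± 0.13 SE, limma adjusted p = 6.5e-04), and Sox2 in total RNA (0.78 ± 0.11 SE, limma adjusted p = 6.3e-04). Of 14 other genes typical of naive cells, RPF of 8 was called higher and of 1 lower, total RNA of 8 higher and of 2 lower (medians 0.63 and 0.75). Against WT these calls were 9 and 1 in RPF and 8 and 1 in total RNA (medians 1.15 and 1.15). Jam2, an adhesion molecule, rose by 2.38 ± 0.26 SE, limma adjusted p = 2.6e-04, in RPF, and Ooep, an oocyte and embryo protein, by 1.53 ± 0.15 SE, limma adjusted p = 1.2e-04. Dppa3 (Stella) went the other way in RPF (-4.02 ± 0.39 SE, limma adjusted p = 1.2e-04) and in total RNA (-4.87 ± 0.38 SE, limma adjusted p = 3.2e-05).

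The list of the LIF to STAT3 arm held 9 genes, among them STAT3 targets and a feedback inhibitor. Of these 9, 1 rose in RPF and 3 in total RNA, and 0 fell in Nat1-/- against Nat1+/- (medians -0.01 and 0.06). Against WT, 5 of the 9 were higher and 1 lower in RPF and likewise in total RNA (medians 0.73 and 0.61). The kinase gene Pim3, a STAT3 target, rose in RPF (0.87 ± 0.16 SE, limma adjusted p = 0.00282) and in total RNA (1.22 ± 0.16 SE, limma adjusted p = 3.8e-04). The receptor gene Lifr rose in total RNA (1.00 ± 0.13 SE, limma adjusted p = 3.5e-04), with an RPF difference of 0.22. Socs3, the feedback inhibitor, rose in total RNA by 0.49 ± 0.15 SE, limma adjusted p = 0.0299, with -0.06 in RPF.

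Of 9 genes of the WNT arm that acts on Esrrb, the RPF calls were 1 higher and 3 lower, those of total RNA 4 higher and 1 lower (medians -0.11 and 0.75). Against WT they were 1 and 2 in RPF and 2 and 1 in total RNA (medians 0.15 and 0.25). Tcf7l1, whose product represses Esrrb, rose in RPF (1.06 ± 0.16 SE, limma adjusted p = 0.00112) and in total RNA (1.99 ± 0.23 SE, limma adjusted p = 2.6e-04). Apc fell in both (-1.18 ± 0.15 SE, limma adjusted p = 4.9e-04, and -0.42 ± 0.13 SE, limma adjusted p = 0.0246). Axin1 rose in total RNA (1.13 ± 0.13 SE, limma adjusted p = 2.4e-04), and TE of 3 of the 9 fell, among them that of Axin1 (-0.91 ± 0.17 SE, limma adjusted p = 0.0265). The others were the kinase genes Gsk3a and Gsk3b, which fall outside the naming rule.

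In the arm from FGF to ERK, RPF of 3 of 13 genes was called higher and of 4 lower, total RNA of 7 higher and of 3 lower (medians 0.12 and 0.40). Against WT, each assay had 2 higher and 4 lower (medians 0.16 and 0.13). Fgfr2, a gene that Prdm14 represses, fell in RPF (-4.57 ± 0.40 SE, limma adjusted p = 7.1e-05). The ERK response gene Egr1 fell in RPF (-2.92 ± 0.25 SE, limma adjusted p = 7.2e-05). Other ERK response genes of the list, named here after their values were seen, had higher RPF means in Nat1-/-. From Nat1+/- to Nat1-/- these means went from 4962 to 8751 for Etv5, 620 to 1467 for Etv4 and 1411 to 2285 for Dusp6. The WT means were 7332, 547 and 1340, so Etv5 was lowest in Nat1+/-. Sos1, whose product activates RAS, fell in RPF (-1.30 ± 0.15 SE, limma adjusted p = 3.1e-04) and rose in total RNA (0.40 ± 0.14 SE, limma adjusted p = 0.0422). TE of 1 of the 13 fell, that of Sos1 (-1.70 ± 0.19 SE, limma adjusted p = 0.00176). Of 7 genes of DNA methylation and the Prdm14 partner Cbfa2t2, 0 were called higher and 1 lower in RPF, with 2 and 1 in total RNA (medians 0.06 and -0.11). Against WT, each assay had 4 higher and 2 lower (medians 0.61 and 0.42). Dnmt3a, a de novo methyltransferase, fell in RPF (-2.24 ± 0.18 SE, limma adjusted p = 5.0e-05) and in total RNA (-2.42 ± 0.16 SE, limma adjusted p = 1.6e-05). RPF means in WT, Nat1+/- and Nat1-/- were 6457, 2495 and 2038 for its relative Dnmt3b and 3719, 6278 and 7625 for Dnmt3l. Neither of these relatives was called in RPF between the targeted genotypes. Cbfa2t2 rose in total RNA (0.64 ± 0.13 SE, limma adjusted p = 0.00398), with 0.17 in RPF.

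Relatives of the factors from their own families, 18 genes, gave 0 higher and 1 lower of 11 tested in RPF, and 3 and 3 of 12 in total RNA (medians 0.08 and 0.26), and against WT 1 and 2, and 2 and 2 (medians 0.09 and 0.13). Ubp1, a CP2 relative of Tfcp2l1, rose in total RNA (0.83 ± 0.14 SE, limma adjusted p = 0.00168), and Prdm1 fell in RPF (-1.15 ± 0.21 SE, limma adjusted p = 0.00311). Yy2 was at 0 in every library. Of 12 genes of the formative and primed states that follow the naive one, 2 were higher and 4 lower by RPF calls, 3 and 3 by total RNA calls (medians -0.99 and 0.05). Against WT 1 was higher and 6 were lower in each assay (medians -1.46 and -1.51). Fgf5, with RPF means of 68.3 in WT, 7.56 in Nat1+/- and 1.04 in Nat1-/-, reached the RPF minimum mean only through WT. That favoured a fall in the RPF count. Sox4 fell in RPF (-3.33 ± 0.23 SE, limma adjusted p = 2.7e-05), and so did Sall2 (-2.31 ± 0.36 SE, limma adjusted p = 0.00130). Foxd3 rose in RPF (3.21 ± 0.41 SE, limma adjusted p = 5.1e-04) and in total RNA (3.94 ± 0.34 SE, limma adjusted p = 5.7e-05).

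Markers of other cell types moved with genotype as well, and in bulk libraries fewer cells of a type and less RNA per cell cannot be told apart. Of 10 trophoblast markers, the summed RPF value was 10533 to 12967 normalised reads in WT, 2987 to 6167 in Nat1+/- and 2490 to 2699 in Nat1-/-, led by the keratins Krt18 and Krt8 and by Tfap2c. In Nat1-/- against WT 1 of 8 tested rose in RPF and 6 fell, beside 16.5% and 18.3% of all genes. Of 11 fibroblast markers, 6 of 8 tested fell and 0 rose in that comparison. On both lists some markers reached the minimum mean only through WT, which favoured falls in these counts. Examples are Hand1, with RPF means of 191 in WT, 15.0 in Nat1+/- and 2.56 in Nat1-/-, and Col3a1, with 74.3, 3.84 and 0.676. Col1a1 RPF was 1911 and 5922 for WT, 77, 707 and 93.4 for Nat1+/- and 22.7, 45.3 and 38.7 for Nat1-/-, and Acta2 RPF was 928 and 2976 for WT, 26, 164 and 33.6 for Nat1+/- and 3.24, 16.9 and 6.84 for Nat1-/-, with B4 the Nat1+/- culture nearest to WT for both, as it was on the first principal component of RPF. The sum of the fibroblast list was 15717 to 36152 in WT, 54587 to 96272 in Nat1+/- and 19078 to 74201 in Nat1-/-. It was mostly Fn1 and did not follow Col1a1 and Acta2. Lum, Dcn and Postn were at 0 to 3 normalised RPF reads in the targeted cultures. The WT mean of Lum was also low, at 1.55. Up to 5 of the 11 markers were at 0 in a library of Nat1-/- or Nat1+/-, and up to 1 in WT.

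For 11 primitive endoderm markers, 3 of 9 tested rose and 3 fell in RPF in Nat1-/- against WT, beside 16.5% and 18.3% of all genes. Their summed RPF values were 13879 to 19689, 13553 to 21245 and 10049 to 16584 in WT, Nat1+/- and Nat1-/-, led by Lama1, Sparc and Lamb1. The 8 markers of 2-cell-like cells had summed RPF values of 33.9 to 35.0, 14.1 to 43.5 and 2.28 to 5.40, and 0 of them reached the minimum mean in RPF. In total RNA 2 of 8 were tested, and both, Zscan4d and Sp110, fell in Nat1-/- against Nat1+/-. The 8 markers together summed to at most 14.9 normalised total RNA reads in a Nat1-/- culture and to at least 50.6 in a Nat1+/- culture. Both genes therefore reached the minimum mean, taken over all cultures, through the other genotypes. That favoured falls, so no conclusion is drawn from these 2 calls. The part of these cell types in the values of the naive factors was not tested.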

How the data were processed

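RPF and total RNA libraries came from 8 cultures and a TruSeq Ribo Profile kit (labels' protocols). The authors deposited a normalised signal per gene name. It equals whole reads divided by 1 factor per library: reads came out whole for 100% of values (tolerance 0.001). Per the submitters' processing notes the tools were HTSeq 0.6.1, DESeq2, TopHat2 2.1.0, Bowtie2 2.2.8, cutadapt 1.9.1 and bcl2fastq 2.17, and the builds mm10 and GRCm38.p4, with no roles stated. Strand and multi-mapping settings are not given in the sources used here. In these values a count of 0 allows up to 3 reads, or 1.38 to 4.90 normalised reads, for counting error only. Of the value columns, 0 lacked a sample. Of the gene names 27 looked like dates and 2 were repeated.

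In R 4.3.3, limma 3.58.1 with a variance trend was run per assay on log2(value + 1) over genes with a mean of at least 10, with 3 genotype means, two-sided, adjusted over all genes tested. TE was the interaction of assay and genotype. RPF and total RNA deviations of a culture from its genotype mean correlated across genes (r = 0.384 to 0.821, 8 pairs). The 2 WT pairs mirror each other and share 1 value, 0.456, so the 8 are not independent. The culture-term fit is paired by the design. edgeR 4.0.16 and DESeq2 1.42.0 on recovered reads were alternatives, with other filters, pseudocounts (0.5 and 5), scalings and left-out cultures. The fits were tested on simulated data. Named genes were the 10 factors, up to 3 per list with the smallest p in Nat1-/- against Nat1+/- (for markers, the most abundant), Eif4g2, and the closest gene to each factor. The factors and lists were chosen with earlier results of these data known. A RefSeq table of GRCm38.p6 gave overlapping genes and promoters.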

Additional observations from a re-analysis of the deposited data

How the results depend on the processing

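Over 1840 recomputed values of single factors, 1740 kept their direction and side of the threshold, 62 lost and 14 gained a call, and 24 changed sign. The counts of factors called for Nat1-/- against either other genotype stayed within 1.5 times in RPF and total RNA. For Nat1+/- against WT the RPF count of 5 became 3 without the variance trend, 3 with the replicate block and 0 to 6 when 1 culture was left out. The total RNA count of 3 became 1 with the replicate block and 0 to 3 when 1 culture was left out. The replicate number was treated as a name only, since the sources used here do not say whether same-numbered cultures were handled together. Same-numbered cultures correlated at -0.13 to 0.28 in RPF and -0.19 to 0.34 in total RNA. Over all genes the replicate block left 90 higher and 72 lower RPF calls and 102 and 88 total RNA calls in that comparison. For TE, Nat1-/- against Nat1+/-, the culture replicate block gave 4 called factors in place of 0, and 3 to 7 when 1 culture was left out of it. With equal library sums it gave 5, and with TMM factors 6.

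Calls over all genes moved by more than 1.5 times elsewhere. For Nat1+/- against WT, no variance trend gave 225 higher and 256 lower in RPF and 232 and 317 in total RNA, 2 genotypes only 1334 and 1316 and 1312 and 1457, and DESeq2 1284 and 1235 and 1222 and 1337. TE calls for Nat1-/- against Nat1+/- were 6 and 122 with equal sums, 4 and 109 with TMM, 3 and 25 without the trend, 0 and 6 with the shallow total RNA libraries only and 1 and 27 with 2 genotypes. The culture-term fit without the trend gave 413 and 857. Without WTex1, calls for Nat1-/- against WT were 1866 in RPF and 2360 in total RNA, in place of 4567 and 4839, and without WTex2 2558 and 2651. Of the factors, 7 were called in each without WTex1. Without B2, calls for Nat1-/- against WT were 3104 in RPF and 3618 in total RNA, and for Nat1-/- against Nat1+/- 2821 and 3608, in place of 4737 and 5519. TE calls for Nat1-/- against Nat1+/-, 75 with all cultures, were 376 without C3 and 6 to 28 without any other culture. With the culture term, 2037 became 759 without A7, 1096 without B4, 874 without C1, 943 without B2 and 2944 without C3. When WT was left with 1 culture, that culture was assumed to vary like the other groups.

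The sign changes concerned values that were not called, and their cause was not tested. Nr5a2 total RNA in Nat1-/- against Nat1+/- became -0.023 with equal sums, -0.011 with edgeR and -0.10 with the shallow total RNA libraries only, and ranged from -0.10 to 0.10 with 1 culture left out. In Nat1-/- against WT, Nr0b1 total RNA became -0.0077 with equal sums and Klf2 TE -0.00099 with TMM. With 1 culture left out, values in Nat1-/- against WT ranged from -0.10 to 0.79 for Nr0b1 RPF, -0.39 to 0.61 for Nr0b1 total RNA, -0.051 to 0.058 for Klf2 TE, -0.14 to 0.20 for Nr5a2 TE and -0.24 to 0.16 for Tbx3 TE. In Nat1+/- against WT they ranged from -0.10 to 0.18 for Klf2 RPF, -0.74 to 0.15 for Nr0b1 RPF, -0.96 to 0.044 for Nr0b1 total RNA, -0.41 to 0.077 for Zfp42 RPF and -0.18 to 0.38 for Zfp42 total RNA. Depth set a lowest count of 276 reads, for Prdm14 in the total RNA of A7.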

Other observations

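For each factor, the gene with the most similar profile was sought among 10789 genes with a mean of at least 50 normalised reads in both assays. Likeness was the mean absolute difference of log2 deviations from the assay mean over the 16 libraries, so 0 would be identical. Esrrb was closest to Plekhg3 (0.0609), Klf2 to Taf5l (0.0947), Zfp42 to Trim28 (0.107), Klf5 to Pim3 (0.120), Nr5a2 to Trip12 (0.136), Prdm14 to Lix1l (0.154), Nr0b1 to Id4 (0.169), Tfcp2l1 to Atp1b1 (0.202), Klf4 to Itpka (0.244) and Tbx3 to Inhbb (0.310). The neighbour of Klf5, Pim3, is a kinase gene of the LIF to STAT3 list. Inhbb, which encodes an activin subunit, had log2 differences of 2.43 in RPF and 2.75 in total RNA in Nat1-/- against Nat1+/-, and Tbx3 had 1.87 and 2.65. Itpka, an inositol trisphosphate kinase gene, had 1.61 and 1.86, and Klf4 1.45 and 2.51. Taf5l, a subunit gene of histone acetyltransferase complexes, had -0.98 in RPF and -0.27 in total RNA, and Klf2 -1.01 and -0.56. The libraries of a genotype share their culture conditions, and these distances have no replicate check of their own.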
